A study of Capra hircus with 4 samples.

Results

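The 46 goat genes whose name begins with EIF and a digit, the translation initiation factor genes, were followed in RNA-seq libraries of goat longissimus dorsi muscle. They were taken by name from the table that pairs assembled sequences, called unigenes, with goat genes, which names 11208 genes in all. The 46 genes held 65 of the 21195 unigenes with a gene name. By the digit after EIF they formed 6 groups, with 4 genes in the EIF1 group, 14 in EIF2, 11 in EIF3, 13 in EIF4, 3 in EIF5 and 1 in EIF6. Of these genes, 44 reached a summed count of 40 and were tested. The kinase genes EIF2AK2 and EIF2AK3, with sums of 5 and 11, did not.

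The study asked which muscle transcripts mark the use of ractopamine, a β-agonist feed additive that acts on adrenergic receptors. All 4 libraries came from Cashmere goats with a labelled age of 2 months. The control library came from a goat or goats without the drug, and treated libraries 1, 2 and 3 from goats that received 1 mg/kg of oral ractopamine in a schedule of 28 dosing days and 21 withdrawal days. The labels give no time point for any library. The study sequenced treated muscle from dosing day 21 and from withdrawal days 3 and 21, so the 3 libraries, which are described as replicates at deposit, could stem from different days. The study took 3 animals on each sampling day, but which and how many animals made up a library was not given in the sources used here. The 3 comparisons share 1 control library. Below, counts are listed in the order control, treated 1, treated 2 and treated 3, and ratios in the order treated 1, 2 and 3.

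Initiation factors bring the small ribosomal subunit, the initiator tRNA and the start codon of an mRNA together. The EIF4 proteins bind the cap and unwind the mRNA, the EIF3 complex holds them to the small subunit, and EIF2 carries the initiator tRNA with help from its exchange factor EIF2B. EIF1, EIF1A and EIF5 set the accuracy of start codon choice, EIF5B joins the large subunit, EIF5A eases peptide bond formation, and EIF6 keeps the subunits apart. In skeletal muscle, growth signals through mTOR free EIF4E from its binding proteins, while the EIF2AK kinases slow initiation under stress by phosphorylating EIF2.

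The sequences below are shown because they belong to a pair of similar genes, hold a regulatory site or have an unusual base composition. All were cut from the coding part of the deposited unigenes, on the sense strand and without untranslated bases, with positions counted from 1 at the first coding base of the unigene. EIF1 (unigene c2211_g1, bases 49 to 339) and EIF1B (c431_g2, bases 1 to 291) are close copies that differ at 60 of the 291 shared positions, which leaves 79.4% identity, and the capitals mark the bases that differ.
EIF1: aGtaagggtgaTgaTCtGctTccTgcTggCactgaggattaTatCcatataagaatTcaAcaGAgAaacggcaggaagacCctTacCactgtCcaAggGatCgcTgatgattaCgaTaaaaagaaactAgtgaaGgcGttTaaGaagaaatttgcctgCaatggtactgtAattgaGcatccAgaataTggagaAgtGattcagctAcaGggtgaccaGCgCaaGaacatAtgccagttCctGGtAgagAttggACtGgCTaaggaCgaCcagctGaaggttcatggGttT
EIF1B: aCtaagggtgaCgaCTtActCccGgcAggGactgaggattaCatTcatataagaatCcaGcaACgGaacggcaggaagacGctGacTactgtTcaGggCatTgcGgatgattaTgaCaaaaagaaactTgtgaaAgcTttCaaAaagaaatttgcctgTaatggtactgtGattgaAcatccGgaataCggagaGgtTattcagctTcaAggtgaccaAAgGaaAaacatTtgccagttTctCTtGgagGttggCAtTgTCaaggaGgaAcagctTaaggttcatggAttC
EIF2S1, the α subunit of EIF2, is shown around the serine that the EIF2AK kinases phosphorylate, with its codon in capitals (c8916_g2, bases 124 to 186). This serine lay at position 51 when residues were counted after the first methionine.
EIF2S1: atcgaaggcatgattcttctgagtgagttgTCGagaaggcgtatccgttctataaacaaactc
EIF4EBP2, an inhibitor of EIF4E, is shown around the stretch that encodes its EIF4E-binding motif, in capitals (c11501_g1, bases 130 to 210).
EIF4EBP2: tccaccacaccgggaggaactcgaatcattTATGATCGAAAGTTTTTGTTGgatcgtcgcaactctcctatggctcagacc
EIF5B, the member with the highest x-fold of any treated library, is shown at the longest run of A and G in its unigene c13643_g4, in capitals (bases 928 to 1041).
EIF5B: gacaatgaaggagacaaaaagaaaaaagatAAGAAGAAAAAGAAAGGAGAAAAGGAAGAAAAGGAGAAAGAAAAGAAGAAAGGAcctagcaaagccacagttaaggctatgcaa

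The libraries differed in how much of them served to measure these genes. Total expected counts were 8533046, 7962590, 7339521 and 6675218, but counts of named goat genes were 6086312, 3991046, 133809 and 2697657. In treated library 2, 97.9% of the counts paired with goat proteins lay in 25 unigenes without a gene name, which match mitochondrial proteins, against 23.8% to 55.2% in the others. These unigenes were left out of the totals below. A further 15.3% of the named counts of treated library 2 came from TFCP2L1, against 0.119% to 0.431% in the other libraries. Levels are given as CPM, counts per 1000000 named goat counts. Skeletal muscle markers summed to 92187 to 149394 CPM, with 7 of 10 listed genes named, but ACTA1, skeletal actin, had only 130, 6, 0 and 3 counts. The summed adipocyte markers (3 of 5 named) were at 14.8, 111, 859 and 28.5 CPM, and the fibroblast markers (4 of 6 named) at 114, 168, 2220 and 270 CPM. PDGFRA, 1 of these fibroblast markers, had only 2, 0, 0 and 0 counts. Endothelial markers (4 of 4 named) were at 297, 177, 740 and 385 CPM. Of the immune markers 2 of 5 were named, with at most 4.76 CPM, and no red blood cell marker was. The part of these markers in the results below was not tested. In bulk muscle, fewer cells of a type and less RNA per cell cannot be told apart.

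Initiation factor genes made up a smaller share of named goat counts in each treated library than in the control library. They held 54634, 27931, 897 and 17167 counts, or 8977, 6998, 6704 and 6364 CPM. The x-fold, the share in a treated library divided by that in the control library, was therefore 0.780 (95% interval 0.768 to 0.791), 0.747 (0.698 to 0.798) and 0.709 (0.697 to 0.721). These intervals are exact Clopper-Pearson intervals and cover counting error only. The median of all 7544 goat genes tested was itself below 1, at 0.768, 0.837 and 0.731, and the medians of the 44 initiation factor genes were 0.727, 0.722 and 0.706. With genes at 0 counts in treated library 2 set to 3 counts, the medians there were 1.2996 for all goat genes and 0.781 for the members. With the unnamed unigenes in the totals, the initiation factor genes took 0.684%, 0.401%, 0.0142% and 0.285% of the total.

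Single members were read against the x-fold limits of the study, where an x-fold over 3 or under 0.6 counts as past them. The study also set a p threshold, asked for x-folds without a significant difference between its sequenced days, and considered signal pathways. Those criteria were not applied here, so the counts below are not the selection of the study. In treated library 1, 16 of 44 genes were below 0.6, or 36.4%, where 36.5% of all goat genes were, and none was above 3, where 4.51% of all genes were. In treated library 2, 21 genes (47.7%, against 47.1% of all genes) were below 0.6 and only EIF5B was above 3 (2.27%, against 10.5%). These 21 include EIF1AD, EIF1B, EIF2D and EIF4A3 with 0 counts. In treated library 3, 14 genes (31.8%, against 37.9%) were below 0.6 and none was above 3 (2.19% of all genes). Below 0.6 with an interval without 1 were 15, 12 and 14 members (34.1%, 27.3% and 31.8%), against 35.4%, 14.2% and 34.9% of all genes. In treated library 2, 4 of the 44 members and 1544 of the 7544 goat genes were at 0. EIF2B4, EIF2S3, EIF3A, EIF3D, EIF4E3, EIF4G1 and EIF4G3 were below 0.6 in all 3 treated libraries (15.9% of 44, against 18.3% of all genes), and none was above 3 in all 3 (0.928% of all genes). In treated libraries 1 and 3 alone, 9 were below 0.6 (20.5%, against 24.6%).

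Without a limit of size, 26 members were below 1 in all 3 treated libraries (59.1%, against 44.8% of all genes) and 6 above 1 (13.6%, against 14.2%). Intervals lay below 1 for 26, 14 and 27 members (59.1%, 31.8% and 61.4%, against 47.0%, 14.8% and 46.9%) and above 1 for 11, 4 and 5 (25.0%, 9.09% and 11.4%, against 21.6%, 11.3% and 15.0%). The 4 in treated library 2 include EIF4A1, whose interval there held 1 without a unigene that matches Toxoplasma gondii best. Whether an interval excludes 1 depends on the counts as well as on the ratio. A summed count of 200 was reached by 41 of 44 members but by only 4347 of 7544 goat genes. These shares of intervals are therefore not compared at equal depth. In all 3 libraries, intervals lay wholly below 1 for 13 genes (29.5%, against 10.9%) and wholly above 1 for EIF3E, EIF3H and EIF5B (6.82%, against 4.93%). These 3 were below 1 in treated library 2 with all expected counts as the total, at 0.0582, 0.0558 and 0.232. With that total, EIF3E and EIF5B were below 1 in the other treated libraries as well.

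**Figure D1:**
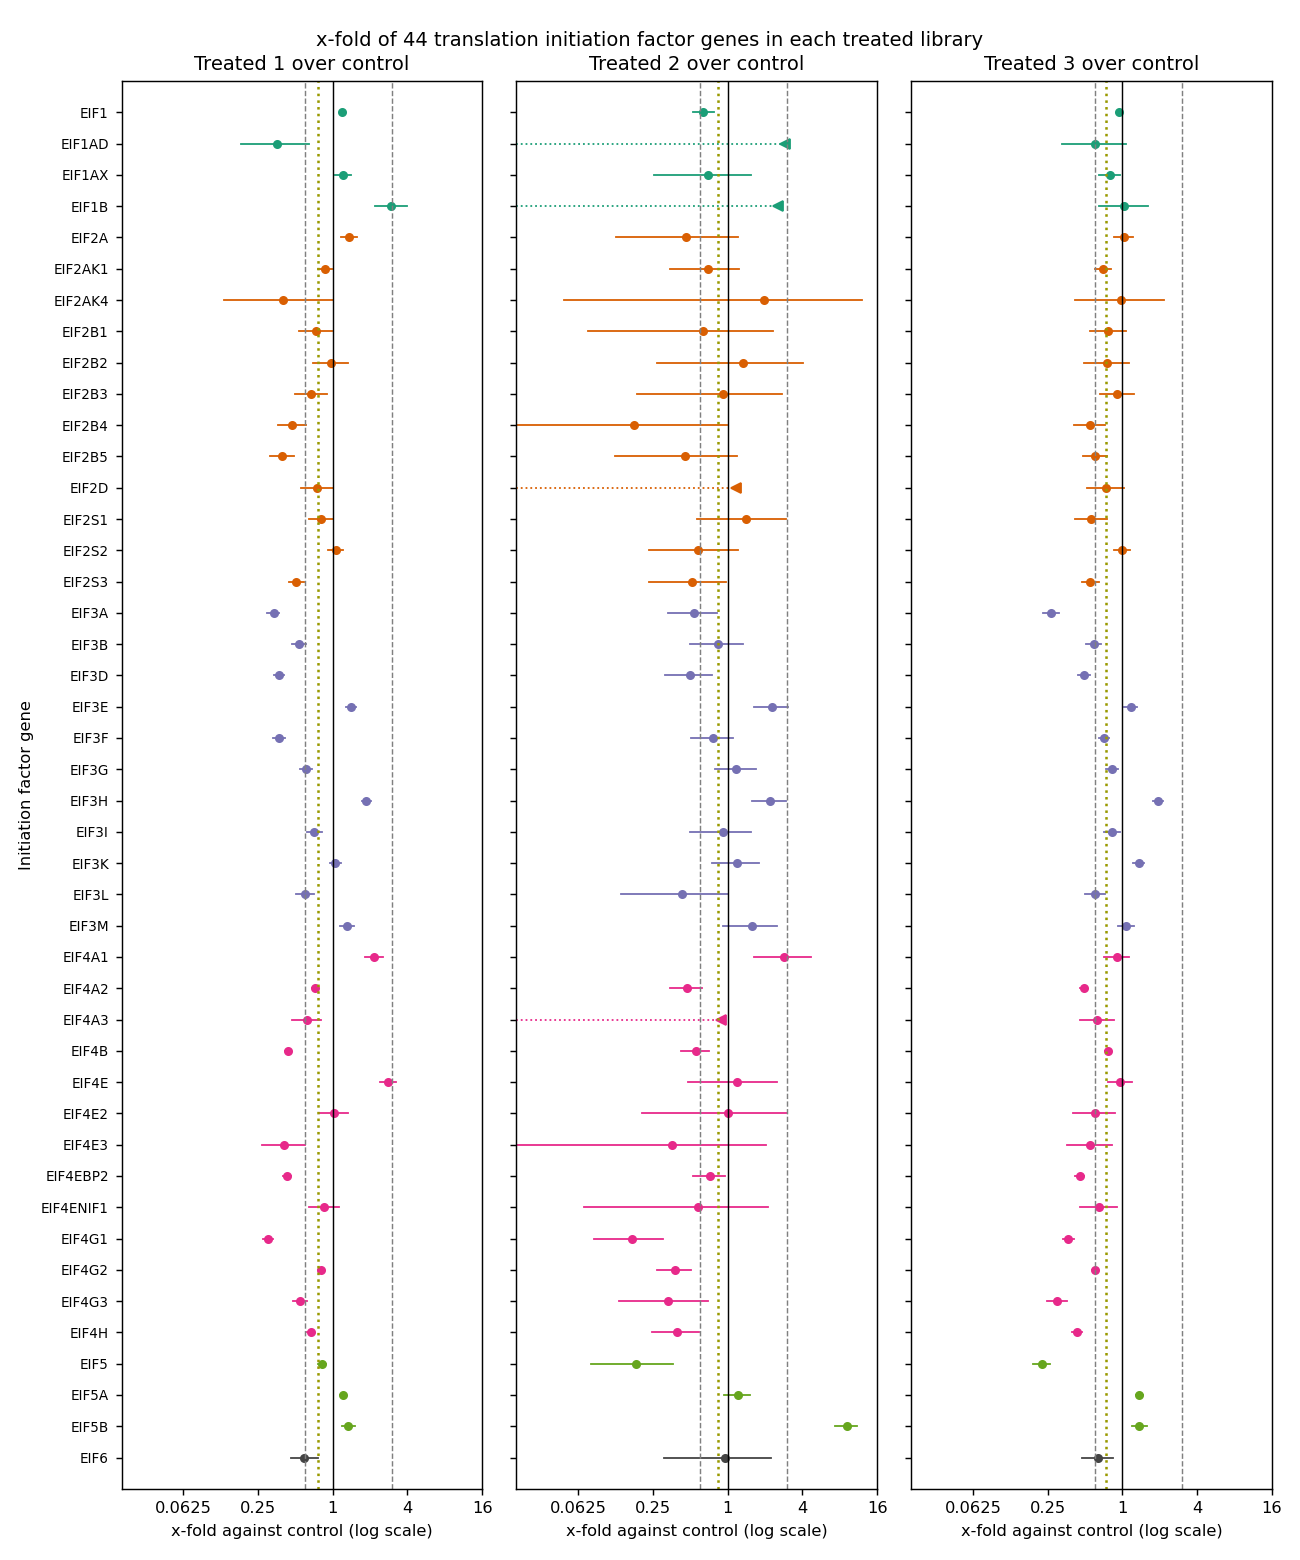
x-fold of 44 initiation factor genes in treated libraries 1, 2 and 3, each divided by the control library (log axis), with points for the ratio, lines for the 95% exact interval of counting error and colours for the EIF1 to EIF6 groups. Arrowheads mark genes with 0 counts at their upper bound, dashed lines the limits 0.6 and 3 and the dotted line the median of all goat genes. EIF4G1 and EIF3A lie left of 0.6 in every panel, EIF3H right of 1 in every panel, and EIF5B stands apart in treated library 2 at 9.08 (0.0558 and 0.232 there with all expected counts as the total).

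Across the 3 treated libraries against the control library, edgeR's quasi-likelihood test called 0 of 44 initiation factor genes at a Benjamini-Hochberg adjusted p of 0.05, and it called 0 of 7544 goat genes (0.0%). In the same test 2 members had an unadjusted p under 0.05, 4.55% of the 44 against 13.3% of all genes. By edgeR these were EIF4G1, with a log2 difference of -1.81 (adjusted p = 0.265), and EIF3A, with -1.45 (adjusted p = 0.374), both lower in 3 of 3 treated libraries. DESeq2 also called 0 members, with 0 under an unadjusted p of 0.05, and called 3 of all genes. With 1 control library the fit takes its spread from the 3 treated libraries and assumes that the control varies like them. No member is therefore called different between the treated and the control libraries, and the x-folds below describe single libraries.

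**Figure D2:**
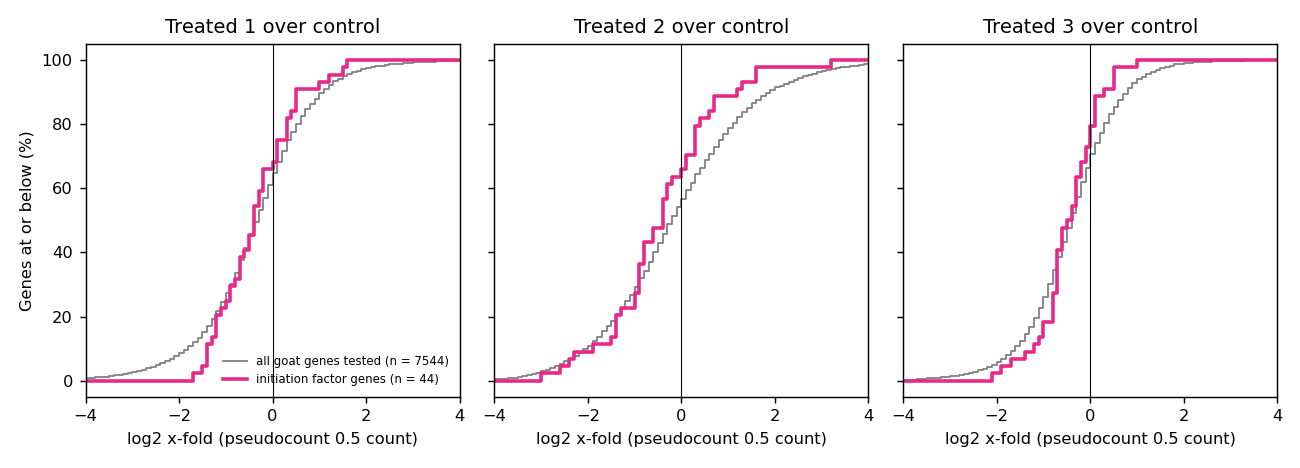
Percent of genes at or below each log2 x-fold in treated libraries 1, 2 and 3 (panels), for the 44 initiation factor genes and for all 7544 goat genes tested. The medians are an x-fold of 0.727, 0.722 and 0.706 for the initiation factor genes and of 0.768, 0.837 and 0.731 for all genes.

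Per summed length of the unigenes of a gene, the members with the highest levels in the control library were EIF1, at 630 CPM per kb, and EIF5A, which carries the modified residue hypusine, at 366. They were followed by EIF4A2, a helicase, at 256, EIF4B, its cofactor, at 199, EIF4G2, a scaffold without a cap-binding partner, at 199, and EIF4H, a further helicase cofactor, at 169. EIF1 was also the highest in treated library 1 (746 per kb) and treated library 3 (590 per kb). In treated library 2, EIF5A was at 441 and EIF1 at 403 per kb, from 72 and 106 counts. The summed length of EIF1 includes 645 bases of a unigene that matches Toxoplasma gondii best and had 0 counts there. The goat-like EIF1 unigene alone was at 599 per kb in that library, above EIF5A. With the authors' TPM of the longest unigene of each gene, EIF1 stood above EIF5A there as well. The order in the control library also depended on summed length. There the longer unigene of EIF4A2 alone was at 369 per kb, and unigene c8724_g1, paired with EIF4EBP2, at 363. The lowest levels were those of the kinase genes EIF2AK4 (1.35 per kb), EIF2AK3 (1.06) and EIF2AK2 (0.292) in the control library.

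**Figure D3:**
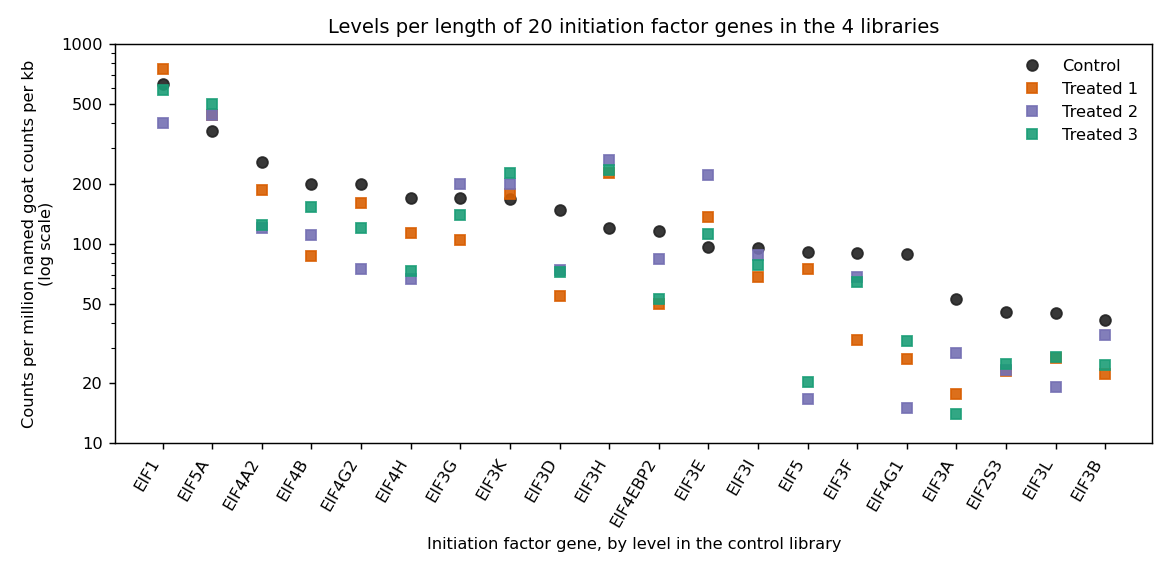
Level of the 20 initiation factor genes with the highest level in the control library, in CPM per kb of unigene (log axis), with circles for the control library and squares for treated libraries 1 to 3. EIF3E and EIF3H, at 96.4 and 120 per kb in the control library, are higher in each treated library on this scale. EIF4G1, at 88.5 per kb in the control library, is lower in each. With all expected counts as the total, EIF3E is below the control library in each treated library, and EIF3H is below it in treated library 2.

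The groups did not keep their proportions to each other. The EIF4 group held 45.9%, 36.7%, 29.5% and 35.4% of the initiation factor counts. Its x-fold divided by that of the other groups together was 0.682 (0.666 to 0.698), 0.494 (0.436 to 0.557) and 0.645 (0.627 to 0.663), a ratio that no choice of total can change. The EIF1 group held 14.8%, 22.6%, 12.5% and 19.3%, and the EIF5 group 9.65%, 13.3%, 21.7% and 12.7%. The EIF2 group stayed between 5.91% and 7.36% in all libraries, and EIF3 was at 22.1%, 20.04%, 29.8% and 24.8%. EIF6 held 0.437%, 0.333%, 0.557% and 0.390%. As an x-fold of summed counts, the EIF4 group was at 0.622 (0.608 to 0.637), 0.480 (0.424 to 0.542) and 0.546 (0.531 to 0.562), while the EIF5 group was at 1.07, 1.68 and 0.936, values that crossed 1 under other totals (0.754 and 0.0430 in treated libraries 1 and 2 with all expected counts, 1.28 in treated library 3 with the median gene set to 1). The difference between the EIF4 group and the others together is larger than counting error in each treated library. Intervals of some single groups overlapped, such as EIF1 at 0.632 (0.520 to 0.762) and EIF2 at 0.617 (0.461 to 0.809) in treated library 2. Of the 195 counts of the EIF5 group in that library, 99 came from 1 unigene of EIF5B, c13643_g4. The spread between animals cannot be read from 1 control library.

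**Figure D4:**
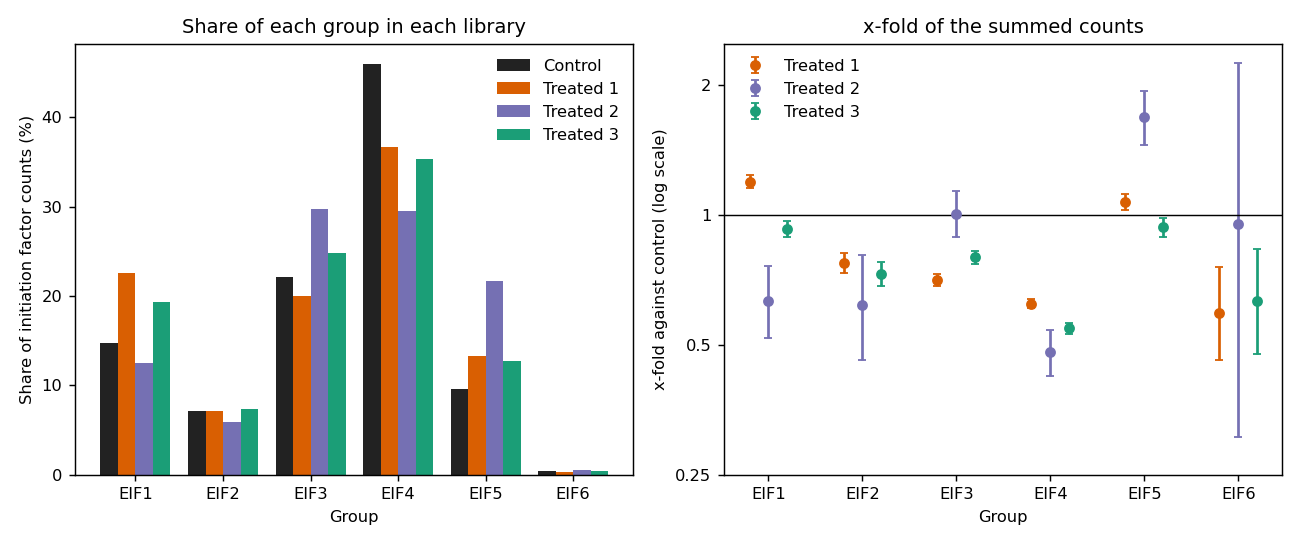
Left, percent of all initiation factor counts in each of the EIF1 to EIF6 groups in the control library and treated libraries 1 to 3. Right, x-fold of each group's summed counts against the control library (log axis), with 95% exact intervals of counting error. The EIF4 group holds 45.9% in the control library and between 29.5% and 36.7% in the treated libraries, and its 3 x-folds lie between 0.480 and 0.622.

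In the EIF1 group, EIF1 had 7542, 5857, 106 and 3131 counts. Its x-fold was 1.18 (1.14 to 1.23), 0.639 (0.523 to 0.774) and 0.937 (0.898 to 0.977), above 1 in treated library 1 and below 1 in the other two. With all expected counts as the total, the value of treated library 1 was 0.832, and with the median gene set to 1 that of treated library 3 was 1.28. EIF1B, the copy shown above beside EIF1, was far lower, with 68, 131, 0 and 31 counts. It reached an x-fold of 2.94 (2.18 to 3.998) in treated library 1 and 1.03 (0.650 to 1.59) in treated library 3. The 0 counts in treated library 2 allow up to 22.4 CPM, above the 11.2 CPM of the control library, so that a difference was not detectable at this depth. EIF1AX, which scans with EIF1, and EIF1AD, a protein with a related domain, were at x-folds of 1.21 and 0.356 in treated library 1, and of 0.787 and 0.602 in treated library 3. EIF1AX was at 0.849 in treated library 1 with all expected counts, and with the median gene set to 1 it was at 1.08 in treated library 3.

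EIF2 has 3 subunits. EIF2S1, which carries the serine shown above, had 225, 119, 7 and 56 counts and x-folds of 0.807 (0.640 to 1.01), 1.42 (0.562 to 2.96) and 0.562 (0.411 to 0.755). Only the interval of treated library 3 is without 1. EIF2S2, the β subunit, had 546, 378, 7 and 240 counts, and its intervals held 1 in all 3 treated libraries, with x-folds of 1.06, 0.583 and 0.992. EIF2S3, the γ subunit that binds GTP, had 798, 267, 9 and 195 counts and x-folds of 0.510 (0.443 to 0.587), 0.513 (0.234 to 0.979) and 0.551 (0.469 to 0.646). All its treated values lay below the control value.

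EIF2B1 to EIF2B5 encode the exchange factor that reloads EIF2 with GTP. Their summed x-fold was 0.554 (0.492 to 0.624), 0.564 (0.299 to 0.969) and 0.670 (0.588 to 0.761). EIF2B4, a regulatory subunit, had 256, 79, 1 and 62 counts, and x-folds of 0.471 (0.361 to 0.608) in treated library 1 and 0.546 (0.407 to 0.724) in treated library 3. In treated library 2 its single count gave a ratio of 0.178 with an interval of 0.00448 to 0.999. EIF2B5, the catalytic subunit, was at 0.392 (0.312 to 0.488) and 0.602 (0.482 to 0.748) in treated libraries 1 and 3, and the x-folds of EIF2B1, EIF2B2 and EIF2B3 in these libraries lay between 0.675 and 0.972. EIF2A and EIF2D, which can deliver initiator tRNA in other ways, were at 1.35 and 0.747 in treated library 1 and at 1.02 and 0.731 in treated library 3. In treated library 1, EIF2A was at 0.945 with all expected counts, and EIF2D at 1.16 when its longest unigene alone was used.

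Of the kinases that phosphorylate EIF2S1, EIF2AK1, which responds to heme, was the main one measured. It had 724, 413, 11 and 224 counts and x-folds of 0.870 (0.769 to 0.983), 0.691 (0.343 to 1.24) and 0.698 (0.598 to 0.812). With the median gene set to 1, the first of these was 1.13. EIF2AK4, which senses uncharged tRNA, had 23, 6, 1 and 10 counts, and each of its intervals held 1. EIF2AK3, the kinase of the endoplasmic reticulum, had 8, 0, 1 and 2 counts, and EIF2AK2, which binds double-stranded RNA, had 1, 3, 0 and 1. At these counts no difference was detectable for EIF2AK2 and EIF2AK4. EIF2AK3 was under the count filter as well, and its 0 counts in treated library 1 gave an interval of the x-fold that reached up to 0.893.

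The EIF3 subunits covered a wide range of x-folds, from 0.334 to 1.87 in treated library 1, 0.427 to 2.28 in treated library 2 and 0.265 to 1.94 in treated library 3. EIF3E, EIF3H, EIF3K and EIF3M were above 1 in each treated library. EIF3E had 879, 808, 44 and 453 counts and x-folds of 1.402 (1.27 to 1.54), 2.28 (1.64 to 3.08) and 1.16 (1.04 to 1.30). These were 0.985, 0.0582 and 0.659 with all expected counts as the total. EIF3K was at 1.05, 1.19 and 1.35 and EIF3M at 1.30, 1.56 and 1.07, with intervals without 1 in treated library 3 for EIF3K and in treated library 1 for EIF3M, where all expected counts gave 0.763 and 0.912. EIF3H, a subunit with an MPN domain, had 896, 1098, 43 and 770 counts and the highest x-folds of the EIF3 group in treated libraries 1 and 3, at 1.87 (1.71 to 2.04), 2.18 (1.57 to 2.96) and 1.94 (1.76 to 2.14). With all expected counts as the total, its x-fold in treated library 2 was 0.0558. Its edgeR log2 difference was 0.99 (adjusted p = 0.613). EIF3A, the largest scaffold subunit, had 1788, 392, 21 and 210 counts and x-folds of 0.334 (0.299 to 0.373), 0.534 (0.330 to 0.819) and 0.265 (0.229 to 0.306). EIF3D, which can bind the cap of some mRNAs, had 2010, 488, 22 and 436 counts and x-folds of 0.370, 0.498 and 0.489. EIF3B was at 0.535, 0.840 and 0.590 and EIF3F at 0.369, 0.762 and 0.713. EIF3L was at 0.599, 0.427 and 0.602. EIF3G and EIF3I lay between 0.612 and 1.18, and their values in treated library 3, 0.824 and 0.822, were 1.13 and 1.12 with the median gene set to 1. EIF3J and EIF3C do not occur as gene names. A gene named LOC102182187, described as similar to subunit C, had 1705, 291, 14 and 302 counts and x-folds of 0.260, 0.373 and 0.400, but its name falls outside the rule.

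Within EIF4F, the cap-binding complex, the scaffold genes had low x-folds. EIF4G1 had 2957, 582, 11 and 482 counts, and all treated shares lay under the control share. Its x-folds were 0.3002 (0.274 to 0.328), 0.169 (0.0844 to 0.303) and 0.368 (0.333 to 0.405). EIF4G3, a second scaffold, had 953, 340, 7 and 126 counts and x-folds of 0.544 (0.479 to 0.616), 0.334 (0.134 to 0.691) and 0.298 (0.246 to 0.360). EIF4G2 had 5104, 2691, 42 and 1359 counts and x-folds of 0.804 (0.767 to 0.843), 0.374 (0.269 to 0.507) and 0.601 (0.565 to 0.638). In treated library 1 it was above the median of all goat genes, 0.768, and at 1.05 with that median set to 1, and in treated libraries 2 and 3 it was below the median.

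The cap-binding proteins behaved differently from library to library. EIF4E had 265, 485, 7 and 113 counts. Its x-fold was 2.79 (2.40 to 3.25) in treated library 1, and 1.201 (0.478 to 2.51) and 0.962 (0.765 to 1.203) in the other two. The difference from the control library exceeded counting error only in treated library 1. EIF4E2, a relative that represses translation, had 136, 91, 3 and 36 counts and x-folds of 1.02, 1.00 and 0.597. EIF4E3 had 127, 34, 1 and 31 counts and x-folds of 0.408 (0.271 to 0.6001) in treated library 1 and 0.551 (0.359 to 0.821) in treated library 3, and 0.358 with an interval of 0.00900 to 2.03 in treated library 2.

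Of the helicase genes, EIF4A2 was the abundant one. It had 4371, 2066, 45 and 941 counts and x-folds of 0.721 (0.684 to 0.760), 0.468 (0.341 to 0.628) and 0.486 (0.452 to 0.521). EIF4A1, with 76.4% identity of shared coding bases to EIF4A2, had 270, 381, 17 and 108 counts and x-folds of 2.15 (1.84 to 2.52), 2.86 (1.64 to 4.67) and 0.902 (0.715 to 1.13), with 0.0732 in treated library 2 when all expected counts were the total. Of these counts, 2, 136, 7 and 0 came from a unigene of 70.0% identity whose best protein match is in Toxoplasma gondii, a parasite. The goat-like unigene alone had 268, 245, 10 and 108 counts and x-folds of 1.39 (1.17 to 1.66), 1.70 (0.805 to 3.17) and 0.909 (0.720 to 1.14). EIF4A3, a helicase of the exon junction complex, had 190, 77, 0 and 53 counts and x-folds of 0.618 (0.468 to 0.809) and 0.629 (0.455 to 0.857) in treated libraries 1 and 3. In treated library 2 its 0 counts gave an interval that reached up to 0.892. The helicase cofactors EIF4B and EIF4H had 4928, 1411, 60 and 1677 counts and 2661, 1161, 23 and 506 counts. The x-folds of EIF4B were 0.437 (0.411 to 0.463), 0.554 (0.422 to 0.714) and 0.768 (0.726 to 0.812), the last of which was 1.05 with the median gene set to 1. Those of EIF4H were 0.665, 0.393 and 0.429.

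EIF4EBP2, which holds EIF4E away from EIF4G, had 2967, 832, 47 and 595 counts and x-folds of 0.428 (0.396 to 0.462), 0.721 (0.528 to 0.961) and 0.452 (0.414 to 0.494). These sums joined 2 unigenes of unlike identity. Unigene c11501_g1, whose sequence is shown above and which matches the goat EIF4EBP2 protein with 92.0% identity, had 1021, 32, 8 and 86 counts. Its x-folds were 0.0478 (0.0325 to 0.0679), 0.356 (0.153 to 0.705) and 0.190 (0.151 to 0.237). Unigene c8724_g1 matches that protein with only 48.0% identity, and its best protein database match is EIF4EBP1, a name that does not occur among the goat genes. It had 1946, 800, 39 and 509 counts and x-folds of 0.627 (0.577 to 0.681), 0.912 (0.646 to 1.25) and 0.590 (0.534 to 0.651). The coding parts of these unigenes are 69.9% identical over shared positions, and the code for an EIF4E-binding motif occurs in both. EIF4ENIF1, which carries EIF4E into the nucleus, had 157, 88, 2 and 45 counts, with an interval without 1 in treated library 3 only (0.647, 0.454 to 0.906).

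The 3 members of the EIF5 group differed from each other. EIF5, which activates the GTPase of EIF2, had 1980, 1059, 8 and 196 counts. Its x-folds were 0.816 (0.756 to 0.879), 0.184 (0.0792 to 0.363) and 0.223 (0.192 to 0.259), and with the median gene set to 1 that of treated library 1 was 1.06. EIF5A had 2717, 2145, 72 and 1643 counts and x-folds of 1.204 (1.14 to 1.27), 1.21 (0.940 to 1.52) and 1.36 (1.28 to 1.45), above 1 in each library, while with all expected counts as the total they were 0.846, 0.0308 and 0.773. EIF5B had 576, 504, 115 and 349 counts and was the most counted member in treated library 2. Its x-folds were 1.33 (1.18 to 1.51), 9.08 (7.37 to 11.1) and 1.37 (1.19 to 1.56), and its edgeR adjusted p was 0.484. Its x-folds were 0.938, 0.232 and 0.775 with all expected counts as the total, and with the unnamed unigenes in the total the value of treated library 2 was 0.252. EIF6 had 239, 93, 5 and 67 counts and x-folds of 0.593 (0.462 to 0.757), 0.952 (0.306 to 2.25) and 0.632 (0.475 to 0.833).

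The value of EIF5B in treated library 2 rested on 1 of its unigenes. Unigene c13643_g4, which begins with the start codon and lacks the stop codon, had 193, 277, 99 and 189 counts, and its x-folds were 2.19 (1.81 to 2.64), 23.3 (18.1 to 29.9) and 2.21 (1.80 to 2.71). Unigene c13643_g7, which ends with the stop codon, had 383, 227, 16 and 160 counts, and its x-folds were 0.904 (0.764 to 1.07), 1.90 (1.08 to 3.13) and 0.943 (0.779 to 1.14). The coding bases of c13643_g4 are 71.8% A or G, with the run of 54 such bases shown above, where those of c13643_g7 are 57.9% A or G, with a longest run of 29. Over 14229 named coding sequences of at least 300 bases the median was 52.2%, with a median longest run of 11.0, and 0.0211% had a share of A or G as high as c13643_g4. The 36 unigenes with at least 65% A or G and a summed count of at least 40 had a median x-fold of 1.15, 2.01 and 0.891 in treated libraries 1 to 3, against 0.773, 0.827 and 0.736 for the 7474 others. The part of base composition in the EIF5B value was not tested.

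Unigenes paired with 1 gene name also differed for EIF3A and EIF2S3, which like EIF4EBP2 and EIF5B were chosen for this display after their values were seen. For EIF3A, c10402_g1 with the start of the coding sequence had 1069, 105, 9 and 75 counts and x-folds of 0.150, 0.383 and 0.158. The unigene c8429_g1 with its end had 719, 287, 12 and 135 counts and x-folds of 0.609, 0.759 and 0.424. For EIF2S3, c13530_g3 had 646, 180, 3 and 129 counts and x-folds of 0.425, 0.211 and 0.451, and c13530_g4 had 152, 87, 6 and 66 counts and x-folds of 0.873, 1.80 and 0.980. The coding parts of these EIF2S3 unigenes are 91.4% identical over 489 shared positions, so how reads were divided between them is uncertain.

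**Figure D5:**
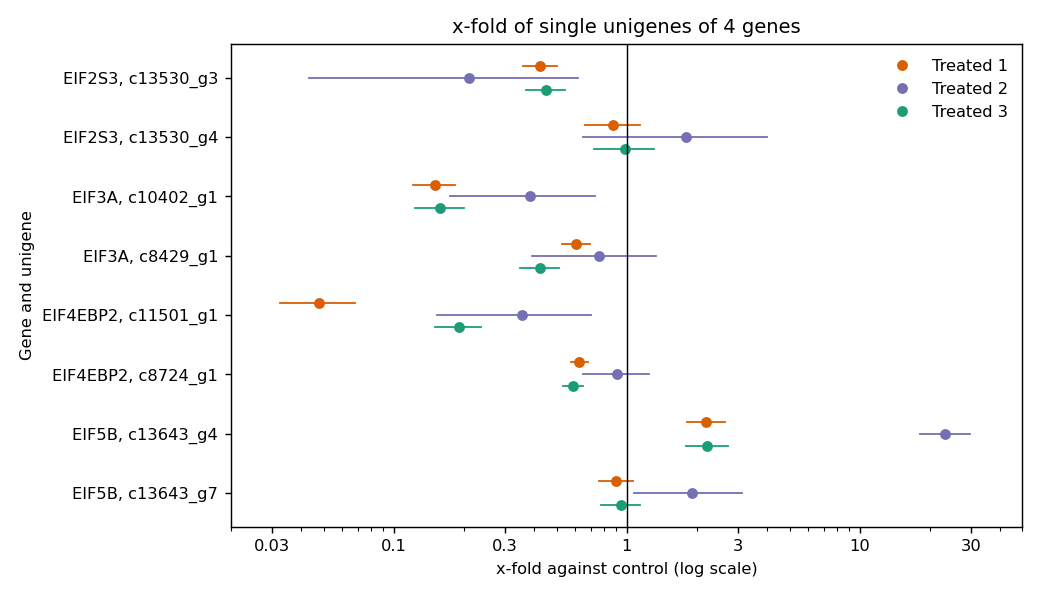
x-fold of single unigenes of EIF2S3, EIF3A, EIF4EBP2 and EIF5B in treated libraries 1 to 3 against the control library (log axis), with points for the ratio and lines for the 95% exact interval of counting error. The 2 unigenes paired with a gene name lie apart in treated libraries 1 and 3, as for EIF4EBP2 in treated library 1 at 0.0478 and 0.627. The second of these values is that of c8724_g1, whose best protein database match is EIF4EBP1. Unigene c13643_g4 of EIF5B reaches 23.3 in treated library 2.

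The treated libraries themselves were compared where depth allowed, between treated libraries 1 and 3. Of 44 members, 17 had a higher share in treated library 1 with an interval without 1 (38.6%, against 24.0% of all genes), and 8 had a lower share (18.2%, against 21.6%). Here too, the shares of intervals are not compared at equal depth. EIF5 was the only member above 3, with a ratio of 3.65 (3.13 to 4.28), where 5.99% of all genes were. EIF4E followed at 2.90 (2.36 to 3.59), EIF1B at 2.86 (1.92 to 4.37) and EIF4A1 at 2.38 (1.92 to 2.98). Of the EIF4A1 counts in treated libraries 1 and 3, 136 and 0 came from the unigene that matches Toxoplasma gondii best. The goat-like EIF4A1 unigene had 245 and 108 counts, so the ratio of 2.38 is not that of the goat-like unigene alone. Below 0.6 were 4 members (9.09%, against 15.8% of all genes). EIF3F was at 0.518 (0.455 to 0.589) and EIF4B at 0.569 (0.529 to 0.611), while the intervals of EIF2AK4, at 0.406 (0.121 to 1.23), and EIF1AD, at 0.591 (0.267 to 1.29), held 1. EIF3H, at 0.964 (0.878 to 1.06), did not differ beyond counting error. There is no replicate within either library, so the spread between animals on these ratios is unknown.

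Genes that act beside the initiation factors were taken from fixed lists. Of 24 partners of initiation, 19 were named and 18 tested, with medians of 0.732, 0.630 and 0.586 in treated libraries 1 to 3. In these libraries 8, 10 and 10 of the 18 were below 0.6, where 36.5%, 47.1% and 37.9% of all goat genes were, and 1, 0 and 0 above 3, where 4.51%, 10.5% and 2.19% were. No partner passed the edgeR test after adjustment, and 4 of 18 had an unadjusted p under 0.05, against 13.3% of all genes. LARP1, which binds the cap of ribosomal protein mRNAs, had 545, 22, 1 and 58 counts and x-folds of 0.0616 (0.0383 to 0.0942) and 0.240 (0.180 to 0.315) in treated libraries 1 and 3. MTOR, the kinase that frees EIF4E, had 677, 145, 4 and 110 counts and x-folds of 0.327, 0.269 and 0.367. PPP1R15A, which directs the dephosphorylation of EIF2S1, had 219, 1109, 5 and 98 counts, and was the partner above 3, at 7.72 (6.67 to 8.97) in treated library 1 against 1.04 and 1.01 in the others. PPP1R15B, also among the partners, had 48, 6, 1 and 6 counts. Its x-folds went the other way in treated library 1, at 0.191 (0.0667 to 0.446), 0.948 (0.0235 to 5.54) and 0.282 (0.0986 to 0.660). ATF4, whose mRNA is translated when EIF2S1 is phosphorylated, had 5895, 5465, 136 and 3326 counts and x-folds of 1.41, 1.05 and 1.27. These hold for named goat counts as the total. With other totals, under which several members crossed 1, no x-folds of genes outside the members were computed.

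Of the 9 genes of elongation and termination, all were named and 8 tested, with 5, 3 and 3 of the 8 below 0.6 in treated libraries 1 to 3 and 0 above 3, against the shares of all goat genes given beside the partners. EEF2, which moves the ribosome along the mRNA, had 15325, 3484, 210 and 3944 counts and x-folds of 0.347, 0.623 and 0.581. EEF1A1, which delivers aminoacyl-tRNA, had 41527, 10505, 753 and 16293 counts and x-folds of 0.386, 0.825 and 0.885. Of the other tested genes of the list, EEF1D and EEF1B2 went the other way in treated libraries 2 and 3. EEF1D was at 1.03 (0.958 to 1.10), 1.37 and 1.79, and EEF1B2 at 0.882 (0.812 to 0.957), 1.90 and 1.23. In treated library 1 the interval of EEF1D held 1 and that of EEF1B2 lay below 1. EEF1G, at 0.522, 0.926 and 0.805, and EEF2K, at 0.823, 0.231 and 0.830, were below 1 in each treated library. The release factor genes ETF1 and GSPT1 were below 0.6 in each treated library, at 0.303, 0.377 and 0.382 and at 0.408, 0.450 and 0.346. None of the 8 passed the edgeR test after adjustment, and 2, ETF1 and GSPT1, had an unadjusted p under 0.05, against 13.3% of all genes.

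Length of the transcript moved with x-fold over all goat genes. Spearman's rho of the longest unigene's length with log2 x-fold was -0.233, -0.333 and -0.346 in treated libraries 1 to 3 over 7544 genes, and -0.114, -0.160 and -0.366 over the 44 initiation factor genes, which share libraries and are not independent. The 12 members with a longest unigene under 1500 bases had median x-folds of 0.887, 1.12 and 0.972, the 11 of 1500 to 2500 bases 0.620, 0.535 and 0.565, and the 21 longer ones 0.804, 0.722 and 0.652. For all goat genes the medians were 0.992, 1.28 and 1.00 for the 2253 short genes and 0.640, 0.589 and 0.589 for the 2670 long ones. The part of length in the x-folds of EIF4G1, EIF4G3 and EIF3A, which have long unigenes, was not tested.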

How the data were processed

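RNA-seq was measured in 4 libraries, 1 control and 3 treated. Per the labels, the libraries were made from total RNA with the NEBNext Ultra RNA kit, and FastQC 0.10.1 is named in the submitters' processing notes. The assembler, the counting tool and the goat annotation are not given in the sources used here, so no chromosome positions are printed. The authors deposited expected counts for 59774 unigenes, which were whole numbers and were used as counts, TPM, and the percent identity of each unigene to a goat protein. FPKM and transcript tables were not used. All 46 gene names were found in the symbols of the assembly ARS1.2.

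Expected counts were summed per gene name. Unigenes without a gene name (23.8% to 97.9% of the paired counts) were left out of the totals, which departs from the plan of using all paired unigenes, and the planned total was kept as an alternative. The x-fold was the ratio of shares, with exact 95% Clopper-Pearson intervals. PCR copies are not independent molecules, so intervals cover counting error only, and 3 counts was the floor for a count of 0. Medians of log2 x-fold used a pseudocount of 0.5 count, and genes needed a summed count of 40. edgeR 4.0.16 (glmQLFTest, R 4.3.3) compared 3 treated libraries with 1 control, and DESeq2 1.42.0 was an alternative. The labels do not tie libraries to animals or days, so p-values measure only the spread between these libraries, in which animal and day cannot be told apart. Coding sequences were aligned with biopython 1.88. Other tools were Python 3.11.15, numpy 2.4.6, pandas 2.3.3, scipy 1.17.1 and matplotlib 3.10.9. The steps were tested on simulated data.

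Values in every library are given for the 10 members with most control counts, the 3 highest and 3 lowest by mean log2 x-fold of treated libraries 1 and 3, members past an adjusted p of 0.05, members past one limit in every treated library, and a fixed list of EIF1, EIF2, EIF4, EIF5 and EIF6 genes. EIF3B, EIF3E, EIF3F, EIF3K, EIF3L, EIF3M, EIF5B, LOC102182187, EIF2B5, other partner and elongation genes, and single unigenes were named after their values were seen. The members and lists were chosen with earlier results of these data known. Alternatives were other totals and scalings, filters, limits, pseudocounts, unigene choices and leaving out libraries.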

Additional observations from a re-analysis of the deposited data

Results flagged for a closer look

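Unigenes whose best protein match is in an apicomplexan parasite, such as Toxoplasma gondii, numbered 153, and their expected counts lie outside the comparison of goat genes. In the order control, treated 1, treated 2 and treated 3 they held 48, 1021, 42 and 6 counts. What flagged them is a count in treated library 1 above that of the control library. As CPM, with named goat counts as the total, they were at 7.89, 256, 314 and 2.22, highest in treated library 2. With all expected counts as the total, the values on the same scale were 5.63, 128, 5.72 and 0.899. Treated library 1 was thus above the control library with both totals, while the place of treated library 2 depended on the total. Of these unigenes 89 were paired with 81 goat genes, and 3 with the initiation factor genes EIF1, EIF2S2 and EIF4A1. In the same order these 3 unigenes held 4, 160, 7 and 0 counts. The source of these counts was not tested.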

How the results depend on the processing

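The edgeR result of 0 initiation factor genes called was the same under each alternative run: TMM scaling, DESeq2, no filter, a summed count of 200, other totals, an identity of at least 80%, and without each treated library (0 to 0). The lowest adjusted p of a member ranged from 0.0845 without treated library 2 to 0.979 with the unnamed unigenes in the total. Over all genes the count of calls was 0, but 203 with no filter, 3 by DESeq2, and 25, 279 and 54 without treated libraries 1, 2 and 3.

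Members past the limits numbered 16, 22 and 14 in treated libraries 1 to 3. With all expected counts as the total they were 27, 44 and 38, and with the unnamed unigenes added 44 in treated library 2 and 36 in treated library 3. Treated library 3 had 5 with the median gene set to 1 and 8 with limits of 2 and 0.5, and treated library 2 had 13 when the interval had to lie without 1. Below 0.6 in every treated library were 9 to 11 members when a treated library was left out, 10 without treated library 1, 9 without treated library 2 and 11 without treated library 3.

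The median log2 x-fold of the members, -0.46, -0.47 and -0.50, was -0.97, -5.76 and -1.32 with all expected counts, -0.87, -5.64 and -1.27 with the unnamed unigenes, -0.080, -0.21 and -0.050 with the median gene set to 1, and -0.43, -0.65 and -0.63 with the longest unigene. It was -0.41 in treated library 1 and -0.47 in treated library 3 with an identity of at least 80%, -0.42 in treated library 1 with a summed count of 200, -0.42 in treated library 2 with a pseudocount of 1 and -0.23 there without TFCP2L1. With genes at 0 counts set to 3 counts, the median x-fold in treated library 2 was 0.781 for the members and 1.2996 for all goat genes, of which 1544 were at 0.

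Values whose interval lay without 1 crossed 1 with the total, the median gene or the longest unigene. With all expected counts, treated library 1 had EIF1 at 0.832, EIF5A at 0.846, the EIF1 group at 0.839 and the EIF5 group at 0.754, treated library 2 had EIF3H at 0.0558, EIF4A1 at 0.0732 and the EIF5 group at 0.0430, and treated library 3 had EIF5A at 0.773. With the unnamed unigenes these were 0.889, 0.904, 0.896, 0.805, 0.0606, 0.0796, 0.0467 and 0.802. With the median gene set to 1, treated library 1 had EIF2AK1 at 1.13, EIF4G2 at 1.05, EIF5 at 1.06 and the EIF2 group at 1.01, and treated library 3 had EIF1 at 1.28, EIF4B at 1.05, and the EIF1, EIF3 and EIF5 groups at 1.27, 1.09 and 1.28. Beyond these, all expected counts put EIF1AX at 0.849, EIF2A at 0.945, EIF3M at 0.912, and EIF3E and EIF5B at 0.985 and 0.938 in treated library 1, EIF3E and EIF5B at 0.0582 and 0.232 in treated library 2, and EIF3E, EIF3K and EIF5B at 0.659, 0.763 and 0.775 in treated library 3. With the unnamed unigenes, EIF1AX was at 0.907 and EIF3M at 0.975 in treated library 1, EIF3E and EIF5B at 0.0633 and 0.252 in treated library 2, and EIF3E, EIF3K and EIF5B at 0.684, 0.792 and 0.804 in treated library 3. EIF5A in treated library 2, whose interval held 1, was at 0.0308 with all expected counts and 0.0335 with the unnamed unigenes. With the median gene set to 1, treated library 3 had EIF1AX at 1.08, EIF3G at 1.13 and EIF3I at 1.12. With the longest unigene, EIF2D was at 1.16 in treated library 1, EIF5B at 0.917 and 0.934 in treated libraries 1 and 3, and the EIF5 group at 0.850 in treated library 2. The ratio of the EIF4 group to the others lay between 0.442 and 0.682 under each alternative run.

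Between treated libraries 1 and 3, the members lower in treated library 1 were 2 rather than 8 with all expected counts and 2 with the unnamed unigenes. EIF1 over EIF5A per kb of summed unigene length, 1.72, 1.69, 0.913 and 1.18 in the control library and treated libraries 1 to 3, was 2.52, 2.48, 1.34 and 1.73 by TPM of the longest unigene. For other values the cause was not tested. No paired analysis was possible because the control label carries no replicate number. Depth limits treated library 2, with 897 initiation factor counts.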
